A study of Rattus norvegicus with 8 samples.

Results

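The genes described here encode secreted and membrane-bound signals of blood vessel growth and cell guidance, together with their receptors. They are the VEGF, angiopoietin, Delta, Jagged, ephrin, semaphorin and PDGF ligands, and Tie1, the Notch and Eph receptors, the plexins, the neuropilins and the sphingosine 1-phosphate receptors. They were chosen by gene symbol from the array's annotation, without a cutoff on measured values, though with earlier results of these data known. The symbols matched 105 probe sets, and where a gene had several, the one with the highest mean level stands for it. This gave 67 genes of 14217 named genes, 37 of them ligands and 30 receptors. Efnb2 and Pdgfb were not analysed here.

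Livers came from male Sprague-Dawley rats, an outbred strain, aged 7 weeks. One group had eaten a purified diet prepared without its ferric citrate for 17 days, and the other the same diet with it. Arrays were made from 4 livers per group, 1 array per liver, which the labels call biological replicates. All rats had been moved to daytime feeding and ate for 1.5 h before sampling, and per the labels hemoglobin in blood was 42% of control on the diet without iron. The labels give 7 rats on the iron-deficient and 6 on the control diet and do not say which of them gave the arrays. The model is therefore a nutritional anemia in growing animals, read in whole liver.

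The deposited values are on the log2 scale, and the array medians lie between 7.1199 and 7.1207. Differences between arrays are very small in this table and their size varies widely between probe sets. Among the 67 genes the within-group SD ran from 0.295 to 1957 millionths of a log2 unit, with a median of 6.95. Differences are therefore given in millionths of a log2 unit, as iron-deficient minus control with the SE from limma, and are not fold changes. Each is accompanied by a standardised difference, its size in units of the SD among livers of one diet. The levels of different probe sets are not compared, since probes differ in how well they hybridise. The hepatocyte markers checked were present at high values, all 8 of them with means from 10.46 (Tat) to 15.0025 (Alb).

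Growth of vessels is steered by VEGF and angiopoietin signals to endothelial receptors, while Notch signalling between neighbouring endothelial cells decides which cells sprout. Ephrins, semaphorins and their receptors were first known from the guidance of axons and also position endothelial, stromal and epithelial cells. In liver these systems act mainly among sinusoidal endothelial cells, stellate cells and bile duct cells, and hepatocytes are a main source of VEGF-A. Low oxygen is a known inducer of several of the ligands.

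The comparison of the diets asked whether these vessel and guidance signals differ in the anemic liver. None of the 67 genes passed the threshold of 0.05 in limma after Benjamini-Hochberg adjustment over all 31042 probe sets, where 0.0422% of all genes passed. At an unadjusted p under 0.05 there were 9 genes, 5 higher and 4 lower in the iron-deficient livers. That is 13.4% of the genes, beside 13.2% of all genes. Split by direction, the share over all genes was 5.74% higher and 7.50% lower. The 2 groups of 4 values did not overlap for 4 genes, or 5.97%, beside 7.82% of all genes. Of these 4, Sema5a, Sema6d and Efna1 were higher (3.42% of all genes) and Efnb1 was lower (4.40% of all genes). Both shares lie near the background. In all, 37 of the 67 (55.2%) had a positive difference, against 47.0% of all genes, and the median standardised difference was 0.16, against -0.07 over all genes.

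These directions depend on how the arrays are scaled, and 3 other scalings were run. They were quantile normalization, the same without the probe set of Hamp, the iron hormone gene whose values are the highest on the control arrays, and median centring. At an unadjusted p under 0.05 in limma, the split of 5 higher and 4 lower genes changed. It became 7 and 1 under quantile normalization, 1 and 1 without Hamp, and 2 and 0 under median centring. In these 3 scalings 11.9%, 2.99% and 2.99% of the 67 had such a p, beside 20.4%, 11.6% and 2.16% of all genes. Positive differences numbered 35, 27 and 61 of the 67 under the same 3 scalings. Median centring adds about 50.6 millionths to each difference, more than most of these genes differ by, since the array medians themselves differed by -50.6 millionths between the diets. It also moves each array by its own median, which ran from 7.11994 to 7.12062 among the iron-deficient livers alone. Genes with small deposited differences can overlap under it for that reason.

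**Figure D1:**
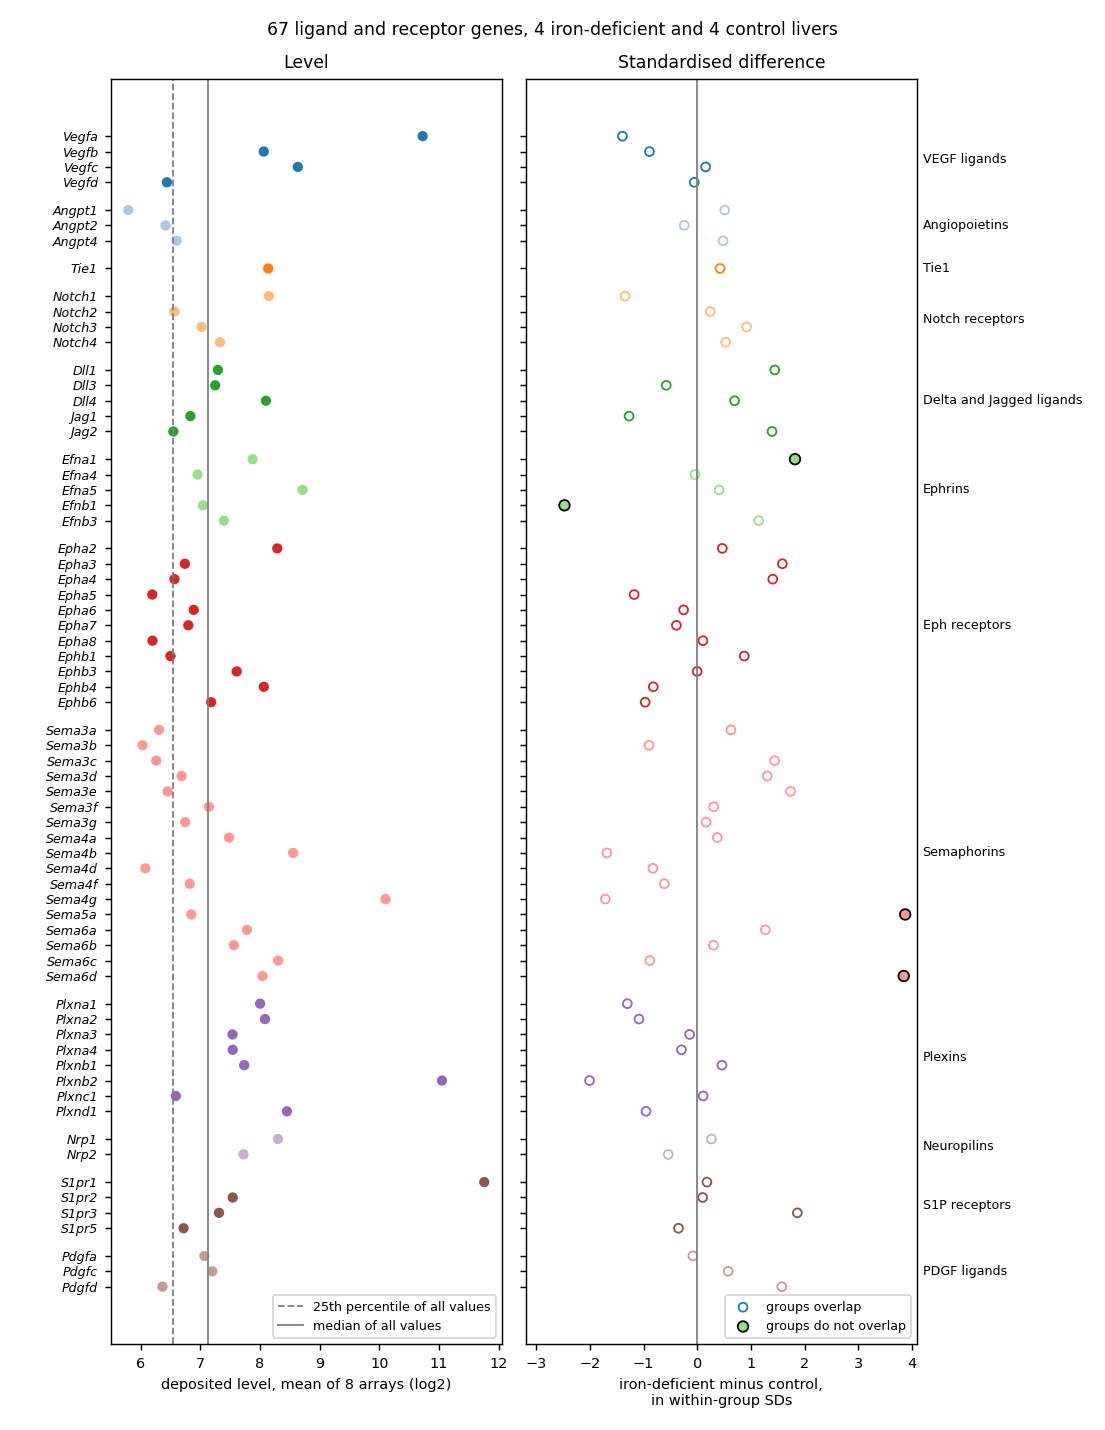
Left, the deposited level of each of the 67 genes (log2, mean of 8 arrays), with the 25th percentile and the median of all values as vertical lines. Right, the standardised difference of each gene (iron-deficient minus control, in within-group SDs, 4 livers per group), where filled points mark the 4 genes whose groups do not overlap. Sema5a and Sema6d lie farthest to the right, at 3.88 and 3.85, and Efnb1 farthest to the left, at -2.48, with the directions of Sema5a and Efnb1 turning under quantile normalization.

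The 4 genes that kept the diets fully apart are described first and all are ligands. Sema5a encodes a transmembrane semaphorin that acts on axons and endothelial cells. Measured from the control mean, its iron-deficient livers read 32.4, 31.3, 39.6 and 49.7 millionths of a log2 unit and its control livers -9.65, 8.93, 10.3 and -9.53. Every iron-deficient value thus lay above the highest control value. The difference was 38.3 ± 6.71 millionths (SE, n = 4 per group), with a standardised difference of 3.88 and a limma adjusted p of 0.137. All 4 probe sets of Sema5a were higher in iron-deficient livers, with standardised differences of 3.88, 1.23, 0.77 and 0.69, but the direction of the first turned under quantile normalization. Sema6d encodes a transmembrane semaphorin that binds plexin A1 in the heart and nervous system. Its deposited log2 values were 8.04043, 8.04044, 8.04030 and 8.04045 in iron-deficient livers and 8.04015, 8.04015, 8.03995 and 8.04001 in control livers. Again the groups were separate, and iron-deficient replicate 3 was the lowest of its group. The difference was 340 ± 59.7 millionths, with a standardised difference of 3.85 and a limma adjusted p of 0.137.

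Efna1 encodes ephrin-A1, a lipid-anchored ligand of EphA receptors that was first found as a gene induced by inflammatory signals in endothelium. Its log2 values were 7.8754, 7.8746, 7.8804 and 7.8760 in iron-deficient and 7.8727, 7.8740, 7.8718 and 7.8736 in control livers. All iron-deficient values were the higher ones, and replicate 3 stood above its group. The difference of 3567 ± 1323 millionths was the largest among the 67 genes in deposited units, but with a standardised difference of 1.82 and a limma adjusted p of 0.393, and was 2301 without iron-deficient replicate 3. A second Efna1 probe set also separated the diets, with 7.2140, 7.2140, 7.2160 and 7.2140 in iron-deficient and 7.2130, 7.2125, 7.2121 and 7.2128 in control livers. That probe set differed by 1897 ± 511 millionths, with a standardised difference of 2.51 and a limma adjusted p of 0.272. Efna1 was the only one of the 4 whose groups stayed apart under the 3 other scalings. They also stayed apart with the mean of probe sets, as did those of Sema5a and Sema6d. The other alternatives (block, variance models, filter, updated symbols, an array left out) cannot make separate groups overlap, so they are no check on this. The groups of Sema5a, Sema6d and Efnb1 overlapped under all 3 other scalings. Their deposited differences are smaller than the span of the array medians, which median centring takes from each array, while that of Efna1 is larger. The contrast therefore does not rank the 4 genes by reliability. Efnb1 encodes ephrin-B1, a transmembrane ligand of EphB receptors. It read -9.98, -8.58, -9.95 and -9.28 millionths from the control mean in iron-deficient livers and -2.80, 4.53, 4.44 and -6.17 in control livers. The iron-deficient values were tightly grouped below all controls. The difference was -9.45 ± 2.67 millionths, with a standardised difference of -2.48 and a limma adjusted p of 0.287. Its second probe set differed by -1.51 ± 8.71 millionths, and the direction of the first turned under quantile normalization and median centring.

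**Figure D2:**
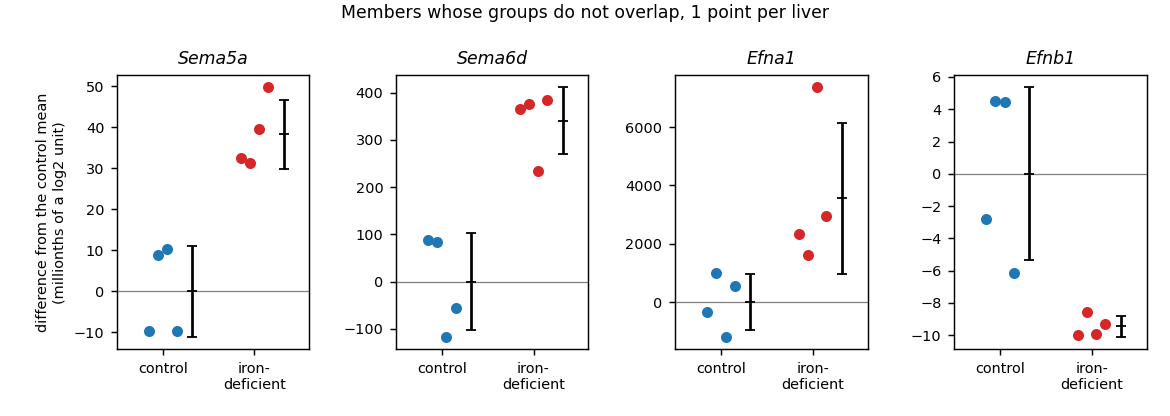
Difference of each liver from the control mean, in millionths of a log2 unit, for the 4 genes whose groups do not overlap, with a separate scale per gene. Points are livers and bars are the mean ± SD of each group (n = 4). The difference is 3567 for Efna1 and -9.45 for Efnb1, which shows how unequal the deposited scale is between probe sets.

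Of the 67 genes, 54 had an upstream sequence in the RefSeq table for the build GRCr8, with 56 promoters in all since Jag2 and Vegfa have 2 each. The 250 bases before the start of the gene are shown for those of the 4 genes that are in the table, because their groups did not overlap as deposited. Capitals mark TGGGAA on either strand (TTCCCA on the other), the core bound by the Notch effector RBPJ. They also mark ACGTG on either strand (CACGT on the other), a form of the core of the hypoxia response element. Other forms of that core, such as GCGTG, were not searched for. Efna1 lies at chr2:176986822-176987071 on the minus strand, Efnb1 at chrX:68297279-68297528 on the plus strand and Sema6d at chr3:132337106-132337355 on the plus strand.
Efna1: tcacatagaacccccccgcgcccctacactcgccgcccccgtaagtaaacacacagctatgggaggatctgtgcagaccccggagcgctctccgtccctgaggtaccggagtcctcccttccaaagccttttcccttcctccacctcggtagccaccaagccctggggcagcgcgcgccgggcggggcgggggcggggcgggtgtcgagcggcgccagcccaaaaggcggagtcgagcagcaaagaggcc
Efnb1: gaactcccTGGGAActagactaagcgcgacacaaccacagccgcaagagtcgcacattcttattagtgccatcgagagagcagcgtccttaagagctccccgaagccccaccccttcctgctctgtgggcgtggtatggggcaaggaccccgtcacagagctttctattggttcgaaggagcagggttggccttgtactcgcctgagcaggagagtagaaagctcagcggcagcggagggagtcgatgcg
Sema6d: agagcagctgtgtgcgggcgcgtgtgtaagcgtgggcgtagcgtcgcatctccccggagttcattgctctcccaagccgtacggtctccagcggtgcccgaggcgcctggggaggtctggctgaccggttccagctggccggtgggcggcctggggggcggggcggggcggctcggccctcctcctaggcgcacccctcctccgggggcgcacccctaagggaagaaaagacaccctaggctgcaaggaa
ACGTG is in none of the 3 windows, and TGGGAA is once in that of Efnb1, 242 bases before the start. The form GCGTG, left unmarked, can be read in the windows of Efnb1 and Sema6d. The windows therefore cannot be said to lack the core. Among the 56 promoters, 7 (12.5%) held ACGTG, against 16.6% of 33469 promoters of this length. TGGGAA was held by 16 of the 56 (28.6%), against 22.1%, and by 1 of the 2 Vegfa promoters. The 7 genes with ACGTG were Epha8, Notch3, Pdgfd, S1pr3, Sema3e, Sema4b and Sema6b. These are matches of letters in a short window and not sites.

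As deposited, the VEGF ligands overlapped between the diets, and 3 of 4 had negative differences. That number was 0 under quantile normalization, 2 without Hamp and 0 under median centring. Vegfa, the main hypoxia-inducible growth factor of endothelium, had a mean level of 10.72. From its control mean the iron-deficient livers read -4.05, -3.18, -6.77 and -6.23 millionths and the control livers -5.60, 2.38, 5.35 and -2.12. All 4 iron-deficient livers were below the control mean, but control replicate 1 lay among them. The difference was -5.06 ± 2.55 millionths, with a standardised difference of -1.39 and a limma adjusted p of 0.521. The second Vegfa probe set was also lower, by -3.25 ± 2.24 millionths. With the mean of its probe sets the Vegfa groups did not overlap, as for 7.76% of all genes. The same held without control replicate 1, where 13.7% of all genes had no overlap. Vegfb, a relative linked to fatty acid uptake, read -34.2, 5.26, -12.0 and -27.8 millionths in iron-deficient and -12.7, -18.7, 3.56 and 27.9 in control livers, so the groups overlapped. Its difference was -17.2 ± 13.1 millionths (limma adjusted p = 0.686). Vegfc, a lymphatic growth factor, read -8.80, 34.6, -12.2 and -2.98 millionths in iron-deficient and -15.4, 6.93, 2.29 and 6.21 in control livers, with iron-deficient replicate 2 highest. It differed by 2.66 ± 11.5 millionths (limma adjusted p = 0.964). Vegfd differed by -0.139 ± 1.82 millionths at a mean level of 6.44, below the 25th percentile of all values (6.55), which does not show expression above background.

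The receptors of these ligands were measured as fixed partners. Flt1, a decoy-like VEGF receptor of endothelium, was at 2884, 2760, 1725 and 2473 millionths above the control mean in iron-deficient livers, with controls at -543, 516, 134 and -107. The groups were far apart, and the difference was 2461 ± 327 millionths with a standardised difference of 5.09 and a limma adjusted p of 0.0801. The groups stayed apart under the 3 other scalings and with the mean of probe sets, the alternatives that can bring an overlap. Over all 17 alternatives the limma adjusted p ranged from 0.0201 under median centring to 0.323, with 3 of the 17 past the threshold. Kdr, the main signalling receptor for VEGF-A, read -47.5, 28.0, -73.3 and -16.9 millionths in iron-deficient and 9.99, 18.9, -8.04 and -20.9 in control livers. Its groups overlapped, and it differed by -27.4 ± 22.5 millionths (limma adjusted p = 0.714), but by 258 under quantile normalization and 23.2 under median centring. Flt4, the receptor for VEGF-C, differed by 0.930 ± 1.22 millionths and Pgf, a placental ligand of Flt1, by 2.70 ± 7.49.

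Angiopoietins act through the endothelial receptor Tek, with Tie1 as its partner. Angpt1, the stabilising ligand, read 0.644, 6.21, -2.63 and 3.76 millionths from the control mean in iron-deficient and 5.44, -0.0540, -1.51 and -3.88 in control livers. Angpt2, the destabilising ligand, read -5.88, -4.91, 9.61 and -5.53 in iron-deficient and 2.37, -8.14, 6.80 and -1.03 in control livers. Neither set the groups apart. Their differences were 2.00 ± 2.72 and -1.68 ± 4.75 millionths (limma adjusted p = 0.847 and 0.939), at mean levels of 5.79 and 6.42 that lie below the 25th percentile. Angpt4 differed by 2.45 ± 3.50 millionths. Tie1 read 3.10, 3.49, -1.28 and -0.785 millionths in iron-deficient and -1.34, 1.50, 3.02 and -3.17 in control livers, and differed by 1.13 ± 1.92 (limma adjusted p = 0.886). Tek, by contrast, lay above every control in all 4 iron-deficient livers, at 29.9, 49.7, 18.1 and 23.9 millionths against 8.40, 4.34, -2.78 and -9.96. It differed by 30.4 ± 7.66 millionths, with a standardised difference of 2.70 and a limma adjusted p of 0.248, and the groups overlapped under all 3 other scalings. Ptprb, the endothelial phosphatase that restrains Tek, read 234, 160, 178 and 198 millionths in iron-deficient and -8.77, 40.4, 21.1 and -52.7 in control livers. Its difference of 193 ± 24.6 millionths had a standardised difference of 5.30 and a limma adjusted p of 0.0735. But the Ptprb groups, too, overlapped under all 3 other scalings, and under the quantile setting without Hamp the difference was 0.

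Notch receptors and their ligands are both held in cell membranes, and contact between cells frees the receptor's inner part to act with RBPJ in the nucleus. None of the 4 receptors and 5 ligands measured had an unadjusted p under 0.05 in limma. Notch1 read -1.86, -23.6, -26.9 and -11.5 millionths from the control mean in iron-deficient and -17.0, 11.7, 4.43 and 0.876 in control livers, with control replicate 1 among the iron-deficient values. It differed by -16.0 ± 8.05 millionths (standardised difference -1.34, limma adjusted p = 0.521). A second Notch1 probe set, singled out after its values were seen, kept the groups apart at -3.84 ± 0.966 millionths, with a standardised difference of -3.84 and a limma adjusted p of 0.248. Notch2 (0.249 ± 0.977), Notch3 (3.28 ± 2.51) and Notch4 (7.41 ± 9.46) had positive differences, and all 3 Notch4 probe sets shared that sign. With the scalings, 2 of the 4 receptors were positive under both quantile settings and 4 under median centring.

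Dll4, the ligand of endothelial tip cells, read -0.235, 0.781, 4.07 and -0.150 millionths in iron-deficient and 1.19, -1.25, -0.275 and 0.330 in control livers, and differed by 1.12 ± 1.29 (limma adjusted p = 0.810). Jag1, the Notch ligand whose loss impairs bile duct formation, read -8.99, -60.8, -132 and -115 millionths in iron-deficient and -83.9, 15.9, 80.9 and -13.0 in control livers. Its groups overlapped, and the difference was -79.3 ± 42.2 millionths (standardised difference -1.27, limma adjusted p = 0.543). Dll1 differed by 9.09 ± 4.30, Jag2 by 2.87 ± 1.56 and Dll3 by -3.82 ± 4.53 millionths. Among the partners of this pathway, Hes1, a transcriptional repressor and Notch target, was higher in all iron-deficient livers. It read 4144, 3680, 8097 and 7606 millionths above the control mean there and -248, -13.7, -117 and 379 in controls. The difference was 5882 ± 1103 millionths, with a standardised difference of 3.61 and a limma adjusted p of 0.148. Under the 3 other scalings and with the mean of probe sets, the alternatives that can bring an overlap, the groups stayed apart. Over all 17 alternatives the limma adjusted p ranged from 0.0226 under median centring to 0.353, with 2 of the 17 past the threshold. The other Notch targets differed by 12.1 ± 23.8 (Hey1), 4.71 ± 23.8 (Hey2) and 16.6 ± 10.5 (Heyl) millionths, and Rbpj itself by -73.6 ± 226. Psen2, a catalytic subunit of the protease that cleaves Notch, read -1.77, -5.42, -2.58 and -3.44 millionths in iron-deficient and -1.72, 2.17, -1.25 and 0.803 in control livers. It differed by -3.30 ± 1.34 millionths (limma adjusted p = 0.427), with a positive difference under quantile normalization and median centring.

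Eph receptors are tyrosine kinases that signal on contact with ephrins. Of 11 measured, 5 had positive differences (4 under both quantile settings and 9 under median centring). None had an unadjusted p under 0.05 in limma, and none kept the groups apart. Ephb4, which marks veins, read -19.5, -49.5, -64.4 and -116 millionths in iron-deficient and -141, 17.5, 92.5 and 31.4 in control livers. Control replicate 1 was the lowest of all 8, and the difference was -62.3 ± 51.4 millionths (standardised difference -0.82, limma adjusted p = 0.716). Epha2, an epithelial receptor of ephrin-A1, differed by 33.1 ± 47.8 millionths. The most positive standardised difference was that of Epha3 (1.59, 38.9 ± 16.6 millionths), but its 3 probe sets disagreed in sign and the quantile settings turned it negative. Epha4 stood at 1.41, Ephb1 at 0.88 and Epha8 at 0.11. On the negative side Epha5 stood at -1.18, Ephb6 at -0.97, Epha7 at -0.39, Epha6 at -0.25 and Ephb3 at -5.54e-04. Epha5, Epha8 and Ephb1 have mean levels below the 25th percentile. The remaining ephrins overlapped between the diets, with Efna5 at 208 ± 346, Efnb3 at 12.7 ± 7.53 and Efna4 at -0.252 ± 4.13 millionths.

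Semaphorins are the largest family here, with 17 genes, and signal mainly through plexins. Of them 11 had positive differences, against 9 under quantile normalization, 7 without Hamp and 16 under median centring. As deposited, 5 had an unadjusted p under 0.05 in limma, namely Sema5a, Sema6d, Sema3e, Sema4g and Sema4b, which is 29.4% beside 13.2% of all genes. That count was 3 under quantile normalization, 1 without Hamp and 1 under median centring, beside 20.4%, 11.6% and 2.16% of all genes. Among the secreted class 3 semaphorins 6 of 7 had positive differences, but 3 under quantile normalization, 2 without Hamp and 7 under median centring. Sema3c, which acts through neuropilins, had the largest at 2454 ± 1150 millionths (standardised difference 1.44), with an SD of 2385 among iron-deficient livers and of 314 among controls. Sema3e, which repels endothelial cells through plexin D1, differed by 13.0 ± 5.09 millionths (standardised difference 1.74, limma adjusted p = 0.414), and was negative under both quantile settings. Sema3d (31.1 ± 16.1), Sema3a (0.560 ± 0.917), Sema3f (0.0905 ± 0.720) and Sema3g (0.774 ± 3.24) were also positive as deposited, and Sema3b was at -1.99 ± 1.65. Under both quantile settings Sema3d was at -169 millionths with all iron-deficient livers below the controls, and Sema3g was at -96.1. Sema3a, Sema3b, Sema3c and Sema3e lie below the 25th percentile of all values, so their expression above background was not shown.

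In the transmembrane class 4, 4 of 5 genes had negative differences, against 1 under quantile normalization, 2 without Hamp and 1 under median centring. Sema4g, with a mean level of 10.10, differed by -97.2 ± 38.4 millionths (standardised difference -1.71, limma adjusted p = 0.417) and Sema4b by -15.2 ± 6.15 (standardised difference -1.69, limma adjusted p = 0.424), and both were positive under the quantile settings. Sema4d, an immune and endothelial ligand of plexin B1, differed by -1.36 ± 1.31 and Sema4f by -2.57 ± 2.92, and Sema4a was at 2.78 ± 5.07. Of class 6, Sema6a, another plexin A ligand, differed by 360 ± 192 millionths (standardised difference 1.27), and all 5 of its probe sets were higher in iron-deficient livers. Sema6b and Sema6c differed by 1.53 ± 3.47 and -2.05 ± 1.71.

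Plexins are the semaphorin receptors, and 6 of 8 had negative differences, against 3 under quantile normalization, 4 without Hamp and 2 under median centring. Plxnb2, a plexin widely made in epithelia, had a mean level of 11.05 and the most negative standardised difference, -2.01. It differed by -65.7 ± 22.1 millionths (limma adjusted p = 0.352) and the groups overlapped, while quantile normalization gave a positive difference. All 4 class A plexins were on the negative side, but 2 under both quantile settings and 1 under median centring, with Plxna1 at -38.7 ± 20.1, Plxna2 at -93.3 ± 58.1, Plxna3 at -0.192 ± 1.15 and Plxna4 at -0.215 ± 0.851 millionths. Their probe sets agreed in sign only for Plxna2. Plxnd1, the endothelial plexin, read 7.43, -12.4, -28.8 and -23.3 millionths in iron-deficient and 4.72, -15.2, 16.8 and -6.31 in control livers, and differed by -14.3 ± 10.1 (limma adjusted p = 0.660). Plxnb1 (2.53 ± 3.77) and Plxnc1 (0.703 ± 4.32) were positive.

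Neuropilins are co-receptors for class 3 semaphorins and VEGF. Nrp1 read 71.2, 63.1, -34.5 and -44.2 millionths in iron-deficient and -55.0, 32.1, 30.0 and -7.08 in control livers, so the iron-deficient livers lay on both sides of the controls. It differed by 13.9 ± 35.4 millionths (limma adjusted p = 0.933). Nrp2 read 0.736, 9.43, -31.8 and -17.8 in iron-deficient and -26.4, 7.54, 13.6 and 5.27 in control livers, and differed by -9.87 ± 12.3 (limma adjusted p = 0.827). Among other guidance partners, Ntn1, the secreted cue netrin 1, kept the groups apart. It read 188, 188, 88.6 and 182 millionths in iron-deficient and 16.6, -29.4, -7.24 and 20.0 in control livers. The difference was 162 ± 25.8 millionths, with a standardised difference of 4.24 and a limma adjusted p of 0.123. Without iron-deficient replicate 3 the limma adjusted p was 0.0281, the lowest of 17 alternatives, which ran up to 0.967, and under the 3 other scalings the groups overlapped. Its receptor gene Neo1 differed by -5.05 ± 1.96 (limma adjusted p = 0.412) and Unc5b by -2.66 ± 2.90.

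Sphingosine 1-phosphate, a blood lipid, keeps endothelial junctions closed through S1pr1. Its probe set had a mean level of 11.76. It read 1.30, 48.2, -59.8 and 37.0 millionths in iron-deficient and 18.3, 11.6, -23.4 and -6.47 in control livers. The iron-deficient livers spread on both sides of the controls, and the difference was 6.69 ± 24.9 millionths (limma adjusted p = 0.957). Under quantile normalization S1pr1 was the only one of the 67 past the threshold (3555 millionths, limma adjusted p = 8.87e-14). Its standardised difference there was 2.82e+12, so that normalization left almost no spread among livers of one diet. Without the Hamp probe set in that normalization its difference was 0. Over all its alternatives the limma adjusted p ran up to 1. A second S1pr1 probe set, with a mean of 6.55 and singled out after its values were seen, kept the groups apart at 5.26 ± 1.42 millionths (standardised difference 2.87, limma adjusted p = 0.272). S1pr3, found on stellate cells and smooth muscle, differed by 62.0 ± 22.5 millionths (standardised difference 1.87, limma adjusted p = 0.383), but by -94.1 under quantile normalization and -173 without Hamp. S1pr2 differed by 1.41 ± 9.45 and S1pr5 by -1.04 ± 2.13. Of the enzymes, Sphk2, which makes the lipid, differed by -646 ± 222 and Sgpl1, which breaks it down, by -98.5 ± 31.9 millionths (limma adjusted p = 0.360 and 0.340).

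PDGF ligands drive stellate cells and fibroblasts. Pdgfc differed by 64.2 ± 75.3, Pdgfd by 1.87 ± 1.06 and Pdgfa by -0.201 ± 1.82 millionths, and none kept the groups apart. Of the receptors, Pdgfra read 200, 409, 248 and 850 millionths in iron-deficient and -162, 288, -49.5 and -76.7 in control livers, so control replicate 2 lay among the iron-deficient values. It differed by 427 ± 170 millionths (standardised difference 1.69, limma adjusted p = 0.420). Pdgfrb read -3.69, -12.3, 27.9 and 24.0 in iron-deficient and -19.8, -28.4, 4.02 and 44.2 in control livers, and differed by 9.00 ± 18.2 (limma adjusted p = 0.909). It was at -163 under quantile normalization, at -255 without Hamp, and between -0.470 and 23.7 with an array left out. Hgf, a stellate cell growth factor for hepatocytes, read 280, 182, 115 and 428 millionths in iron-deficient and 26.3, -53.5, 60.0 and -32.7 in control livers. Its difference was 251 ± 69.6 millionths, with a standardised difference of 2.44 and a limma adjusted p of 0.277, at a mean level of 6.53 just below the 25th percentile.

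Of the 48 partner genes listed, 44 were measured, 25 with positive differences (24, 15 and 41 under quantile normalization, the same without the Hamp probe set and median centring). None passed in limma after adjustment. At an unadjusted p under 0.05 there were 7 higher and 4 lower, or 11 of the 44, and the groups did not overlap for 7 higher and 1 lower, or 18.2%. The same shares over all genes are the 13.2% and 7.82% given above. Under the 3 other scalings the higher genes with no overlap numbered 4, 3 and 2. No overlap in either direction was found there for 8.68%, 3.19% and 0.724% of all genes. As deposited, the 7 higher partners with no overlap were Flt1, Tek, Ptprb, Ntn1, Hes1, Hgf and Eng. Eng is a TGF-beta co-receptor of endothelium, and its difference turned negative without the Hamp probe set in quantile normalization.

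Markers of other liver cell types were read in the same livers. Of 12 endothelial markers measured 10 had positive differences, 7 of them with no overlap, beside 3.42% of all genes. The 3 other scalings gave 11, 9 and 11 positive, and 3, 1 and 2 higher with no overlap. Beside these stand the 8.68%, 3.19% and 0.724% of all genes with no overlap in either direction. As deposited, the median standardised difference of the endothelial markers was 2.26. Their summed log2 level ran from 106.7120 to 106.7148 in iron-deficient and from 106.7071 to 106.7082 in control livers. Such sums weight each marker by its deposited scale, which is unequal. Flt1 (2461 millionths) and Stab2 (2254) had the largest differences in the endothelial list, and Stab1 (-90.6) and Kdr (-27.4) were the 2 negative ones. Of 10 stellate markers 8 had positive differences (6, 6 and 10 under the 3 other scalings), 4 with no overlap (3, 3 and 2). Beside these stand the same 3.42% of all genes as deposited, and 8.68%, 3.19% and 0.724% under the scalings. The stellate sums were 77.683 to 77.697 in iron-deficient against 77.676 to 77.681 in control livers. Eng, Flt1, Kdr and Tek stand in both the endothelial and the partner list, and Hgf and Pdgfrb in both the stellate and the partner list. No marker in either list was at 0, but none could be, since the lowest value on any array was 5.32. Kupffer cell markers, 6 of 6 positive but 5, 0 and 6 under the 3 other scalings, had sums that overlapped, 56.63209 to 56.63287 against 56.63203 to 56.63274. Of 5 bile duct cell markers 3 had positive differences (2, 2 and 3 under the 3 other scalings). The same held for 2 of 4 lymphocyte markers and 1 of 2 red cell markers. As deposited, no marker of these 3 lists kept the groups apart. The part of these cell types in the differences of the vessel and guidance genes was not tested. In whole liver, fewer or more cells of a type and less or more RNA per cell cannot be told apart.

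**Figure D3:**
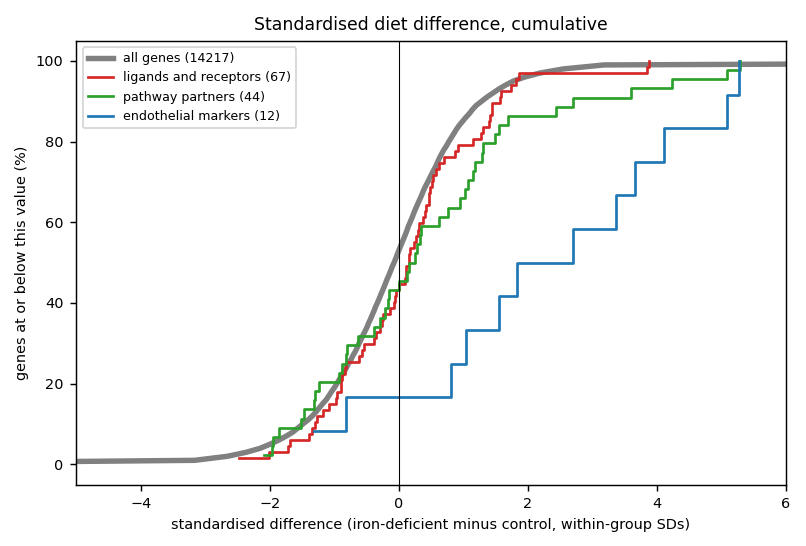
Cumulative share of genes (%) by standardised difference (iron-deficient minus control, in within-group SDs) for all 14217 genes, the 67 ligands and receptors, the 44 partners and the 12 endothelial markers. The curve of the ligands and receptors runs close to that of all genes, with medians of 0.16 and -0.07, while the endothelial markers lie to the right, with a median of 2.26.

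Ligands and receptors can be set side by side. Of 37 ligands 7 (18.9%) had an unadjusted p under 0.05 in limma, and of 30 receptors 2 (6.67%), beside 13.2% of all genes. These are shares as deposited only, and 5 of the 7 ligands are the semaphorins named above. The difference between these shares was not tested. By level, 13 of the 67 genes had a mean below the 25th percentile and 37 one above the median of all values (7.12). Of the 13, only Sema3e had an unadjusted p under 0.05. No single liver held the extremes of these genes. Iron-deficient replicate 3 and control replicate 3 each gave the highest value for 12 genes, and iron-deficient replicate 1 for 4.

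More than 1 probe set was available for 25 genes. For 15 of them all probe sets had the same sign of difference, 11 positive and 4 negative, and for 10 the signs were mixed. The 4 with only negative differences were Vegfa, Notch1, Efnb1 and Plxna2.

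**Figure D4:**
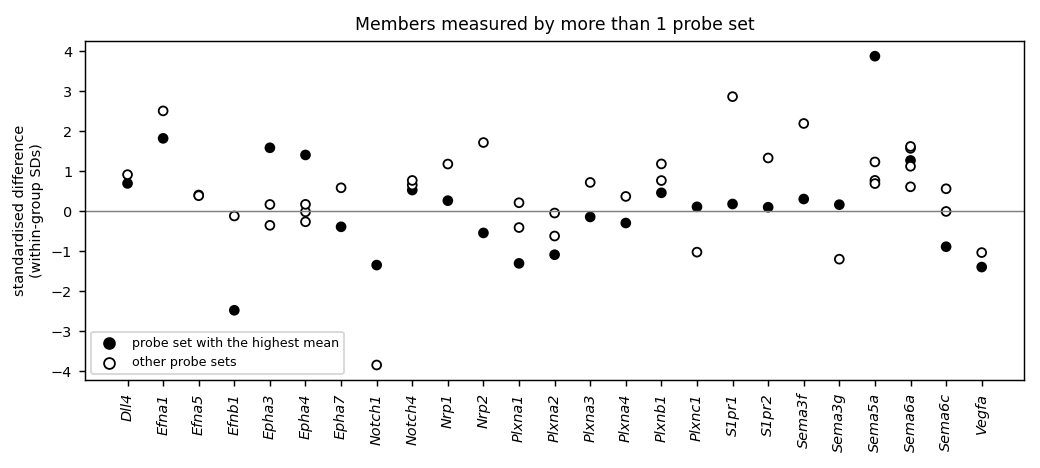
Standardised difference (within-group SDs, 4 livers per group) of each probe set for the 25 genes with more than 1. Filled points are the probe sets with the highest mean and open points the others. Efna1, Sema5a and Sema6a have all points above 0, and Notch1 has both below it. These signs are those of the deposited scale, and the main probe sets of Sema5a and Notch1 turned under quantile normalization.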

How the data were processed

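Liver RNA of 8 rats was measured on Affymetrix rat expression arrays from biotin-labelled cRNA made from 2 ug of total RNA, per the labels' protocols. The deposited table holds log2 values for 31099 probe sets, a unit read from the values, which the authors had already brought to a common scale. Their probe summary and normalization are not given in the sources used here. Control probe sets (57) were left out, which left 31042. Genes were named from the platform annotation, where 20826 probe sets had 1 symbol, 436 several and 9780 none. Updating symbols through gene identifiers changed none of the 67. Iron-deficient minus control was estimated by limma 3.58.1 (lmFit, then eBayes) under R 4.3.3 with no block and Benjamini-Hochberg adjustment over 31042 probe sets. The fit was tested on simulated data. Precision is limited by having 4 arrays of each diet.

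The genes, lists and naming rule were chosen with earlier results of these data known. The rule named 16 fixed genes, of which 14 were measured, and members with an unadjusted p under 0.05 and no overlap. For partners it named Kdr, Flt1, Tek, Pdgfra and Pdgfrb and others by the same criteria. Alternatives were quantile normalization with and without the Hamp probe set, median centring, a filter on low probe sets, a replicate block, the omission of each array, trend and robust variance, the mean of probe sets and updated symbols.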

Additional observations from a re-analysis of the deposited data

Results flagged for a closer look

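In groups of 4 livers, 3 of 56 groups checked among the named genes held a liver far from its group, where chance gives about 1 in 20. In each case it was iron-deficient replicate 3. It read 6.41584 for Angpt2, where the other 3 iron-deficient livers read 6.41583 and, to 7 decimals, lay between 6.4158284 and 6.4158293 against its 6.4158439. For Sema6d it read 8.04030, where the others lay between 8.04043 and 8.04045, and for Ntn1 7.52193, where the others lay between 7.52202 and 7.52203. Sema6d and Ntn1 remained above every control in that liver.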

How the results depend on the processing

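None of the 67 genes passed the threshold under any alternative except quantile normalization, where 1 did. Leaving out each array in turn gave 0 every time. Genes higher at an unadjusted p under 0.05 in limma numbered 1 under the quantile setting without the Hamp probe set and 2 under median centring, and 3 (without control replicate 1) to 6 with an array left out. Lower genes numbered 1 under each quantile setting, 0 under median centring and, with an array left out, 1 (without iron-deficient or control replicate 2) to 7 (without control replicate 1), with 2 without iron-deficient replicate 4. Higher genes with no overlap numbered 1 under the quantile setting without the Hamp probe set and under median centring, and 4 to 6 with an array left out, the most without replicate 4 of either diet. Lower ones numbered 0 under median centring and 1 to 5 with an array left out, with 4 without iron-deficient replicate 1 or 3, 2 without iron-deficient replicate 4 and 5 without control replicate 1. There, 13.4% of the 67 and 13.7% of all genes had no overlap. The median standardised difference was -0.22 without Hamp and lay between 0.03 and 0.25 with an array left out. All genes past the threshold numbered 6 as deposited, 778 under quantile normalization, 52 without Hamp, 38 under median centring, 44 for the mean of probe sets and 0 with the replicate block.

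Of 18 named genes, Angpt1, Tie1, Jag1, Sema6d and Efna1 never reversed, though Angpt1 was at 0 under both quantile settings. Median centring reversed Vegfa (45.5 millionths), Vegfb (33.4), Angpt2 (48.9), Notch1 (34.6), Nrp2 (40.7), Plxnd1 (36.3) and Efnb1 (41.1). Quantile normalization reversed Vegfa (285), Vegfb (876), Angpt2 (17.2), Notch1 (197), Ephb4 (692), Plxnd1 (228), Sema5a (-106) and Efnb1 (111). Without the Hamp probe set it reversed Vegfb (613), Vegfc (-43.1), Angpt2 (17.2), Notch1 (49.7), Dll4 (-97.6), Ephb4 (284), Plxnd1 (16.7), Sema5a (-106) and Efnb1 (57.7). Leaving out an array reversed Vegfc, which ranged from -7.98 to 7.59 millionths, Nrp1 (-5.21 to 33.3), S1pr1 (-7.14 to 28.8) and Angpt2 (-5.44 to 0.590). It moved others by over 1.5 times with no change of sign, namely Angpt1 (0.591 to 3.81), Tie1 (0.0718 without control replicate 4 to 2.13), Dll4 (down to 0.132 without iron-deficient replicate 3), Vegfa (-3.28 without control replicate 3), Vegfb (-7.89 without control replicate 4), Jag1 (-52.3 without control replicate 3), Ephb4 (-109 without control replicate 1 to -31.5 without control replicate 3), Nrp2 (-18.7 to -2.55), Plxnd1 (-21.5 to -8.68) and Efna1 (2301 without iron-deficient replicate 3). The cause was not tested.

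The labels number the replicates of both diets alike, but same-numbered livers showed little shared deviation (correlations of -0.111, 0.0245, -0.0251 and -0.0773 over all probe sets). These correlations cannot exclude pairing or shared handling. Replicate 4 had the lowest array median of its group in both diets (7.11994 in each). With the replicate block 4 genes were higher and 1 was lower at an unadjusted p under 0.05 in limma, or 7.46% beside 11.1% of all genes. No named gene passed the threshold there. The arrays carry no read depth, and a level below the 25th percentile does not show expression.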
